A study of Mus musculus with 4 samples.

Results

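The monocyte-attracting CC chemokines of the mouse lung were followed together with the receptor CCR2. The genes were chosen by symbol, and all 9 (Ccl2, Ccl7, Ccl12, Ccl3, Ccl4, Ccl5, Ccl6, Ccl9 and Ccr2) were found in both deposited tables among 23284 genes in all. There were 4 libraries of whole-lung RNA, 1 for each group, all from C57BL/6 mice. Mice without a functional Il22 gene (genotype IL22-/-), and wild-type mice, were made allergic to house dust mite (HDM) by sensitization and airway challenge, a common asthma model, and their lungs were collected 48 h after the last dose. Wild-type mice without allergen received recombinant IL-22 or phosphate-buffered saline (PBS) into the trachea, and the lungs were taken 24 h later. There was no knockout library without allergen, so whether the knockout differed before HDM was not tested. The labels give no age or sex, do not describe how the knockout was made and do not say whether a library is 1 mouse or a pool. With 1 library per group there was no replicate spread and no test, so every difference below is a difference between 2 libraries.

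CC chemokines are small secreted proteins that bind G protein-coupled receptors on leukocytes and draw the cells along a gradient. CCR2 marks classical monocytes, which leave the bone marrow and enter inflamed tissue in response to its ligands, and in the allergic lung such monocytes give rise to macrophages and inflammatory dendritic cells. The other ligands described here act on monocytes too, and also on T cells, NK cells and granulocytes. IL-22 is a cytokine of lymphocytes whose receptor sits on epithelium and other non-haematopoietic cells, so leukocytes are not its direct targets.

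The values are FPKM, fragment counts scaled by transcript length and by library size. Differences are of log2(FPKM + 1) between the libraries of 1 table, and a gene is called lower or higher where this is 1 or more in either direction and the pair averages at least 1 FPKM. The whole-read steps of low FPKM values gave about 27.3 M reads (M for 1000000) for the knockout HDM library, 25.0 M for wild-type HDM, 28.9 M for IL-22 and 20.0 M for PBS. Estimated reads per gene and 95% exact intervals of ratios follow from these, and they cover counting error only. Il22 itself was listed at 0 in the knockout HDM library and had an FPKM of 0.362 in wild-type HDM, and it was listed at 0 in both the IL-22 and the PBS library. The lung identity of the libraries showed in Sftpc, the surfactant protein gene of alveolar type II cells, at 30749 to 37820 FPKM.

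In HDM lung, 7 of the 9 genes were lower in the knockout library than in the wild-type library and none was higher. Of 13285 genes tested in this pair, 2.42% were lower and 0.549% higher. All 9 lay below 0, as did 46.1% of the genes tested. The largest differences were those of the CCR2 ligands Ccl12 and Ccl7 and of the CCR1 ligand Ccl9, while Ccl5 and the receptor Ccr2 stayed short of the threshold. The median difference over the 9 genes was -1.42, against 0.03 over all genes tested.

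The CCR2 ligands lie in 1 block of chromosome 11 (GENCODE M21 on GRCm38, the assembly called mm10). Ccl12, a mouse ligand of CCR2, is at 82101845 to 82103400. It had 1.10 FPKM in the knockout HDM library, 17.2 in wild-type HDM, 3.95 with IL-22 and 2.25 with PBS. Wild-type HDM stood alone. The knockout HDM level was the lowest of the 4, but its counting interval (0.527 to 2.02) overlapped that of the PBS level (1.26 to 3.72). The knockout HDM library was 15.6-fold lower than wild-type HDM, from about 10 reads against 145, a ratio of 0.0640 with a counting interval of 0.0296 to 0.119. The difference of -3.12 was number 27 from the lowest among all genes tested.

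Ccl7, another CCR2 ligand that also binds other CC receptors, is at 82045712 to 82047525. Its level was 0.430 FPKM in the knockout HDM library, 6.31 in wild-type HDM, 1.45 with IL-22 and 0.754 with PBS. The knockout HDM value was the lowest of the 4 and rests on about 7 reads, against 95 in wild-type HDM. Its counting interval (0.173 to 0.885) overlapped that of the PBS level (0.345 to 1.43). The ratio of knockout to wild-type HDM was 0.0681 (0.0264 to 0.144) and the difference -2.35.

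Ccl2, the main monocyte chemoattractant of the family, is at 82035571 to 82037453. It was at 1.33 FPKM in the knockout HDM library, 6.70 in wild-type HDM, 2.12 with IL-22 and 0.828 with PBS. The knockout HDM level was 5.02-fold lower than wild-type HDM, from about 22 reads against 103, a ratio of 0.199 (0.117 to 0.312). This interval overlapped that of Ccl7 and, narrowly, that of Ccl12. A predicted gene, Gm17268, overlaps Ccl2 on the opposite strand and is not analysed here, and whether the counting used strand is not stated. Summed over the 3 CCR2 ligands, the level was 2.86 FPKM in the knockout HDM library, 30.2 in wild-type HDM, 7.52 with IL-22 and 3.84 with PBS.

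**Figure D1:**
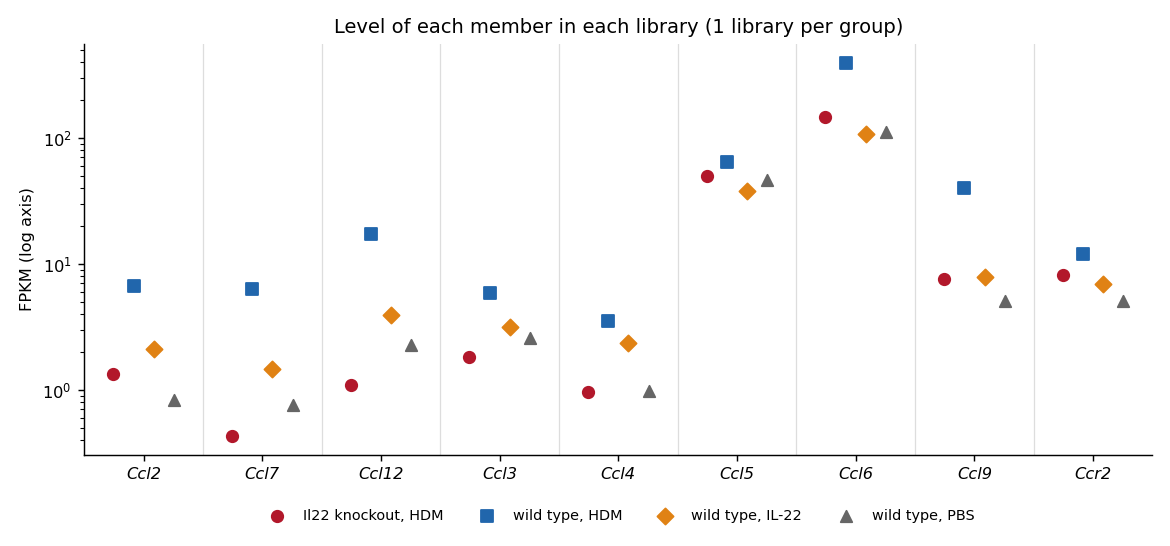
FPKM of each of the 9 genes (log axis) in the Il22 knockout HDM, wild-type HDM, wild-type IL-22 and wild-type PBS libraries, 1 point per library. The wild-type HDM point is the highest of the 4 for every gene, and for Ccl12 it is at 17.2 FPKM with the knockout HDM point at 1.10.

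The other ligands lie in a second block of chromosome 11. Ccl9 (83572919 to 83578636), a CCR1 ligand made by mouse macrophages and other myeloid cells, had 7.54 FPKM in the knockout HDM library, 39.9 in wild-type HDM, 7.79 with IL-22 and 5.02 with PBS. Wild-type HDM stood apart. The knockout HDM and IL-22 levels lay close together. The PBS level was below the IL-22 level of its own pair by more than counting error. It was also below the knockout HDM level, but counting error does not cover a difference in scaling between the pairs. The ratio of knockout to wild-type HDM was 0.189 (0.172 to 0.206), a difference of -2.26.

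Ccl6 (83587882 to 83593087), a rodent CCR1 ligand of macrophages and the most abundant member in every library, had 147 FPKM in the knockout HDM library, 395 in wild-type HDM, 107 with IL-22 and 112 with PBS. The knockout HDM library was 2.69-fold lower than wild-type HDM, a difference of -1.42. The non-coding gene E230016K23Rik overlaps Ccl6 on the opposite strand. It had 3.30 FPKM in the knockout HDM library and 3.67 in wild-type HDM, far below Ccl6.

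Ccl3 (83647844 to 83649355), a CCR1 ligand made by macrophages, was at 1.81 FPKM in the knockout HDM library, 5.86 in wild-type HDM, 3.12 with IL-22 and 2.55 with PBS. Its neighbour Ccl4 (83662584 to 83664683), a chemokine of macrophages and lymphocytes, was at 0.961, 3.50, 2.35 and 0.984 FPKM in the same libraries. Both were called lower in the knockout HDM library, with differences of -1.29 and -1.20. These were the smallest of the 7 that were called on the log2(FPKM + 1) scale, which understates changes of low genes. The ratios of knockout to wild-type HDM were 0.308 (0.193 to 0.479) for Ccl3 and 0.274 (0.131 to 0.533) for Ccl4, so their intervals overlapped. By ratio Ccl6 was the nearest to 1 of the 7, at 0.372 (0.360 to 0.385), an interval that lies within those of Ccl3 and Ccl4.

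Ccl5 (83525778 to 83530518), a ligand of CCR1 and CCR3 that T cells and NK cells make, did not follow its block. It was at 50.1 FPKM in the knockout HDM library, 64.1 in wild-type HDM, 38.0 with IL-22 and 46.5 with PBS. The ratio of knockout to wild-type HDM was 0.782 (0.689 to 0.888), a difference of -0.35, and 12.7% of all genes tested lay lower. Its interval did not overlap that of any other ligand in this pair.

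Ccr2 (chromosome 9, 124101950 to 124113557), the receptor, was at 8.16 FPKM in the knockout HDM library, 11.9 in wild-type HDM, 6.86 with IL-22 and 5.11 with PBS. The ratio of knockout to wild-type HDM was 0.684 (0.616 to 0.760), a difference of -0.50, which was short of the threshold. The receptor thus differed less between these libraries than its 3 ligands, whose intervals ended at 0.119 for Ccl12, 0.144 for Ccl7 and 0.312 for Ccl2. The summed CCR2 ligands per unit of Ccr2 came to 0.351 in the knockout HDM library, 2.53 in wild-type HDM, 1.10 with IL-22 and 0.751 with PBS. In whole-lung RNA, fewer cells of a type and less RNA per cell cannot be told apart.

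**Figure D2:**
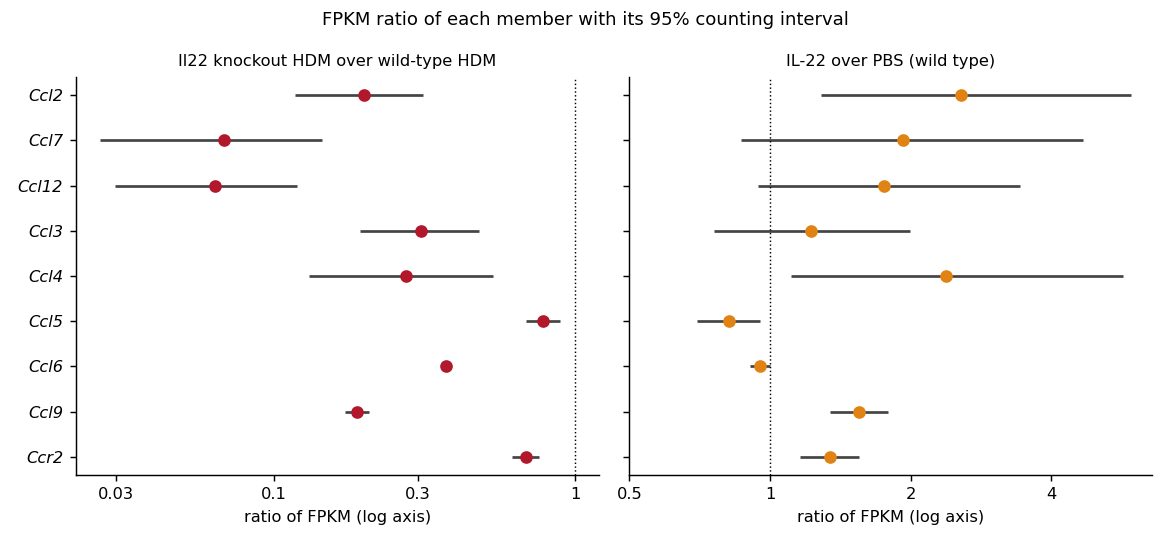
Ratio of FPKM (log axis) of knockout over wild type after HDM, on the left, and of IL-22 over PBS, on the right, for each gene, with lines for 95% exact counting intervals from estimated reads. All 9 ratios on the left are below 1, from 0.0640 for Ccl12 to 0.782 for Ccl5, and on the right they run from 0.817 for Ccl5 to 2.56 for Ccl2.

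The order of the levels was similar in the 4 libraries at the top and less settled at the bottom. Ccl6 was first and Ccl5 second in each, and Ccl5, Ccl6 and Ccl9 together made up 97.3% of the summed ligand FPKM in the knockout HDM library, 92.7% in wild-type HDM, 92.2% with IL-22 and 95.7% with PBS. Ccl9 and Ccr2 had overlapping counting intervals in the knockout HDM, IL-22 and PBS libraries but not in wild-type HDM, where Ccl12 also lay above Ccr2. In the knockout HDM library Ccl3, Ccl2, Ccl12, Ccl4 and Ccl7 followed in this order, each with an interval that overlapped that of the gene above it apart from Ccl3. Of the ligand total, Ccl5 took 23.8% in the knockout HDM library and 11.9% in wild-type HDM, and Ccl12 took 0.523% and 3.19%.

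Neighbouring genes of the blocks were set beside the chemokines. Within 500000 bases of the block from Ccl5 to Ccl4, 24 other genes were listed and 19 passed the filter on level. Of these 1 was lower and 2 were higher in the knockout HDM library than in wild-type HDM, and the median difference was -0.08. The lower gene was AI662270, at 8.49 FPKM in the knockout HDM library and 21.0 in wild-type HDM, and the higher ones were Mmp28, a matrix metalloproteinase, and the overlapping 1700020L24Rik, all named after their values were seen. In the block from Ccl2 to Ccl12 the eosinophil chemoattractant Ccl11 lies between Ccl7 and Ccl12, with a difference of -2.18. The chemokine gene Ccl8 lies just beyond Ccl12, with a difference of -3.65. None of the 3 neighbours there that are not chemokines passed the filter.

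**Figure D3:**
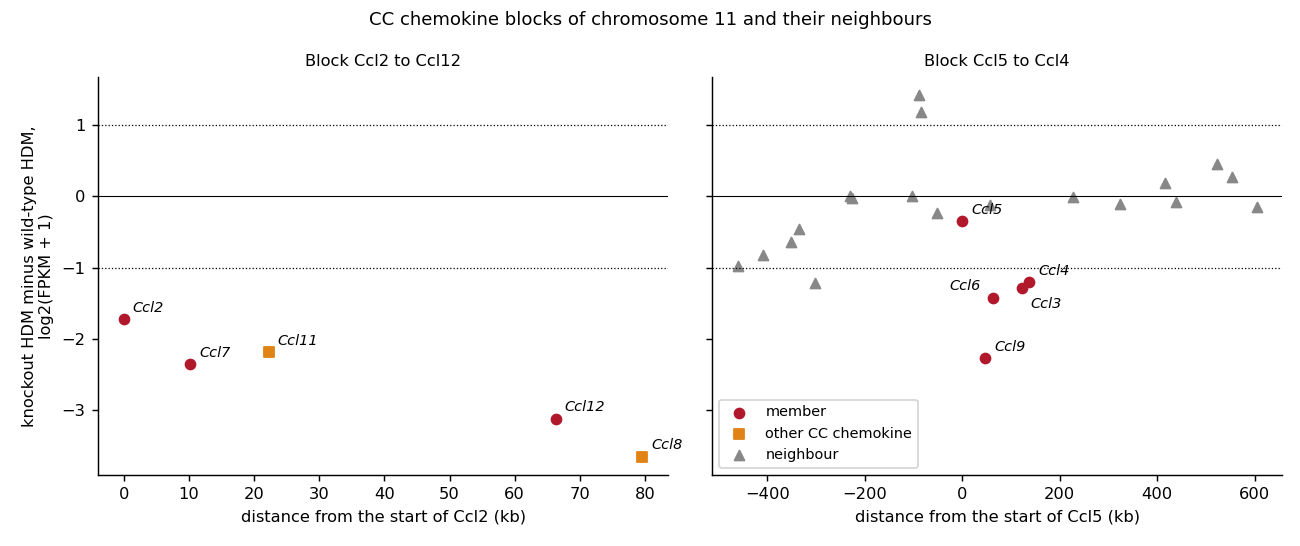
Difference of log2(FPKM + 1) of knockout minus wild type after HDM against distance (kb) from the start of Ccl2 or of Ccl5, for genes past the filter, with the 8 ligands, other CC chemokines and neighbouring genes marked. In the right panel Ccl9 is at -2.26 and Ccl5 at -0.35, and the 19 neighbours have a median of -0.08.

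Sequences just upstream were at hand for 5 of the 9 genes (RefSeq, GRCm38.p6, 250 bases before to 50 after the start). They were searched on both strands for the core of the interferon-stimulated response element and an NF-kB motif, of 10 letters each, TGANTCA for AP-1 and TTCNNNGAA for STAT factors. Over all 32851 promoters in the table, 3.44% held the first, 1.63% the second, 7.81% the third and 8.30% the fourth. The promoter of Ccl9 held a match to the NF-kB and to the AP-1 letters, beginning at -35 and -53 relative to the start, which do not overlap each other. The promoters of Ccl12, Ccl6, Ccl3 and Ccr2 held none of the 4. The promoters of Ccl12, which had the largest difference, and of the neighbouring genes Ccl9 and Ccl6 are given here, 5′ to 3′ on the gene's strand, with the matches in capitals. Ccl12 is on the plus strand at chr11:82101595-82101894, Ccl9 on the minus strand at chr11:83578587-83578886 and Ccl6 on the minus strand at chr11:83593038-83593337.
Ccl12: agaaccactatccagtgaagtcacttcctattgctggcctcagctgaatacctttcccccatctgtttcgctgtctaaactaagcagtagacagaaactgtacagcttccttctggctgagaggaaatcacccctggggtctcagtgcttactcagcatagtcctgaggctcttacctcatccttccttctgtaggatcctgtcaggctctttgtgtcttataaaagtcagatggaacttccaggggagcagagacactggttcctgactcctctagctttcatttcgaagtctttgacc
Ccl9: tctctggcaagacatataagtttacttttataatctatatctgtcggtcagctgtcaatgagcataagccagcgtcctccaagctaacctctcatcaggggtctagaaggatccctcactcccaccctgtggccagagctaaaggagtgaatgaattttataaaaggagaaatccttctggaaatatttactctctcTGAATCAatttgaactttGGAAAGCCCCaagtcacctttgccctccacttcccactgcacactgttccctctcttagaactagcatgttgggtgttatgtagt
Ccl6: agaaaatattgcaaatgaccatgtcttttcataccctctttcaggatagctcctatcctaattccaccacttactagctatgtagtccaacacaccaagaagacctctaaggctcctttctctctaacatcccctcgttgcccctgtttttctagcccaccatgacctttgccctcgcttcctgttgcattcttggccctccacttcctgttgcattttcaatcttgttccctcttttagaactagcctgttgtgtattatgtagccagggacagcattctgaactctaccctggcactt

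Of the transcripts, Ccl6 and Ccl9 share an identical run of at most 25 bases, Ccl2 and Ccl7 of 23, and Ccl2 and Ccl12 of 17. The promoters of Ccl6 and Ccl9 share a run of at most 13 bases.

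Other CC ligands were lower in the knockout HDM library in 5 of 11 members past the filter and higher in none, with a median difference of -0.94. Ccl8 and the eosinophil chemoattractant Ccl24 had the largest differences, -3.65 and -3.55, while the lymphoid-organ chemokines Ccl21a and Ccl21b, which have near-identical copies, were at 0.19 and 0.31. Among the other CC and atypical receptors 0 of 7 were lower and 1 higher (median -0.40), and with scaling by the median ratio 1 was lower and 0 higher. Ccr1, a receptor of Ccl3, Ccl5, Ccl6 and Ccl9, was at 3.07 FPKM in the knockout HDM library and 7.08 in wild-type HDM, a difference of -0.99 that just missed the threshold. Ccrl1 (Ackr4), a scavenger receptor for the homeostatic chemokines, was higher at 5.44 against 2.18 FPKM, and Ccbp2 (Ackr2), which clears inflammatory CC chemokines, was at 15.8 against 11.4. Of 13 genes of chemokine receptor signalling only Rgs1, which dampens G protein signalling in leukocytes, was lower (-1.96), and the median was -0.15. None of the 7 genes of the monocyte and macrophage growth factor axis passed the threshold (median -0.28), with Csf1 at 11.5 FPKM in the knockout HDM library and 14.2 in wild-type HDM and its receptor Csf1r at 21.7 and 26.6.

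Markers of the cells that carry CCR2, or that make these chemokines, also differed between the HDM libraries, and their part in the result was not tested. Classical monocyte markers were lower in 3 of 10 (median -0.68) and summed to 157 FPKM in the knockout HDM library and 226 in wild-type HDM. The 3 were Fcgr1, Ms4a4c and Cd14, and 0 were lower with a size rule of 1.5. Ly6c2, which encodes a surface antigen used to mark classical monocytes, was at 88.6 FPKM in the knockout HDM library and 101 in wild-type HDM. Ly6c2 was the largest part of both sums. Interstitial macrophage markers were lower in 8 of 13 (median -1.31) and summed to 812 and 1109 FPKM, with the complement gene C1qb at -1.80 and the macrophage elastase Mmp12 at -3.57. Apoe, at 446 FPKM in the knockout HDM library and 433 in wild-type HDM, and Lyve1, at 204 and 152, made up most of that sum, and the other 11 summed to 162 and 523 FPKM. Alveolar macrophage markers were lower in 2 of 10 (median -0.10), namely the chitinase-like gene Chi3l3 and the integrin gene Itgax. Their sum was 581 FPKM in the knockout HDM library and 2767 in wild-type HDM, most of it Chi3l3, which has close paralogs that can share its reads.

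No T cell, NK cell or B cell marker past the filter was called, while some granulocyte markers were. None of 9 T cell markers past the filter was called (median -0.49). All 10 T cell markers found summed to 52.0 FPKM in the knockout HDM library and 72.4 in wild-type HDM. None of 8 NK cell markers was called either (median -0.02), and all 9 found summed to 47.2 and 49.8 FPKM. Neutrophil markers were higher in 2 of 8 and lower in 1 (median 0.39), and all 10 found summed to 238 and 192 FPKM. The median was -0.63 for 8 dendritic cell markers, 1 of them lower (Batf3), and -0.04 for 5 B cell markers, none called. Only 1 of 5 eosinophil markers passed the filter, Prg2, which was lower at -1.71. The eosinophil peroxidase Epx was near the floor in every library, at 0 FPKM in knockout HDM and with IL-22, 0.0161 in wild-type HDM and 0.0401 with PBS. No monocyte or macrophage marker was listed at 0 in any library. Structural cells had medians of -0.09 for fibroblast markers with Tcf21 higher, 0.03 for epithelial markers and 0.34 for endothelial markers, with none called among the epithelial and endothelial markers.

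Genes induced by type I interferon and genes induced through NF-kB differed unequally, and their link to the chemokines was not tested. Type I interferon response genes were lower in 15 of 20 in the knockout HDM library (median -1.42), with the transcription factor gene Irf7 at 8.23 FPKM in the knockout HDM library and 66.8 in wild-type HDM. NF-kB inducible genes were lower in 1 of 11 (median -0.55), the neutrophil chemokine Cxcl1, at 1.08 FPKM in the knockout HDM library and 11.5 in wild-type HDM. Without the filter on level 3 were lower, the others being the cytokine gene Il6, at 0.165 FPKM in the knockout HDM library and 1.76 in wild-type HDM, and the neutrophil chemokine gene Cxcl2, at 0.166 and 1.59. Reference genes had a median of -0.16 with none of 10 called.

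**Figure D4:**
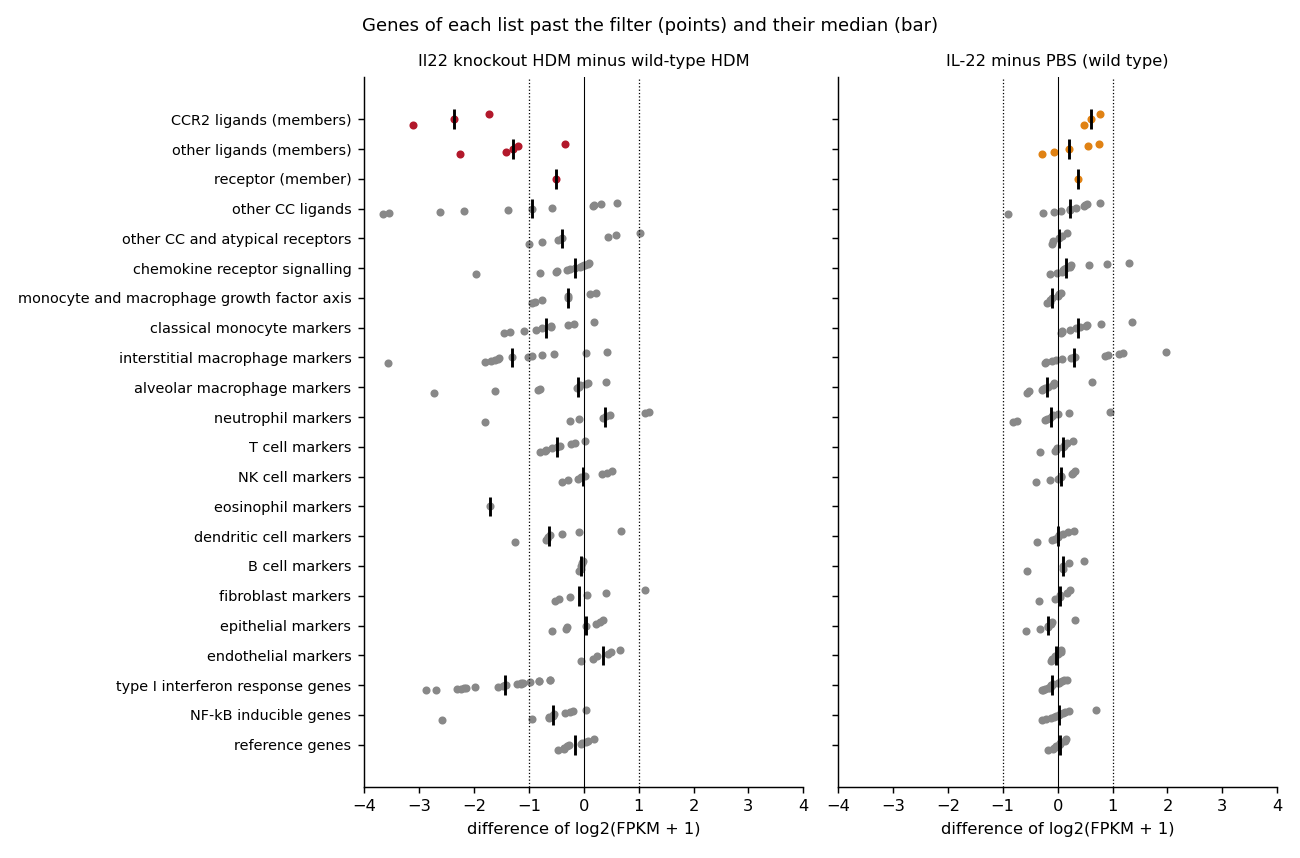
Difference of log2(FPKM + 1) for every gene past the filter in each list, with the list median as a black bar, for knockout minus wild type after HDM (left) and IL-22 minus PBS (right), and dotted lines at the threshold of 1. The CCR2 ligands have the lowest list median on the left, -2.35, and the reference genes lie near 0 in both panels.

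The genes whose pair of differences was most like the mean of the 9 members were Clec10a, Fcgbp, Fcer2a, Fcgr1 and Folr2, by the mean absolute distance of centred log2(FPKM + 1) over the 4 libraries, at 0.03 to 0.05 among 11688 genes. Clec10a, a lectin receptor of macrophages and dendritic cells, was at 2.69 FPKM in the knockout HDM library, 9.42 in wild-type HDM, 5.44 with IL-22 and 3.89 with PBS. Nearest to Ccr2 were Camk1d, Uchl3, Tlr7, Klhl13 and Steap2. With 2 differences to compare, many genes lie close to any pattern.

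In lung without allergen none of the 9 genes was called higher or lower with IL-22 than with PBS, where 0.597% of 13233 genes tested were higher and 0.189% lower. Differences lay above 0 for 7 of the 9 (58.6% of all genes tested did so), with a median of 0.48 against 0.04 over all genes tested. The direction was that of more Ccl2, Ccl4, Ccl12, Ccl9, Ccl7, Ccr2 and Ccl3 in the IL-22 library, and of less Ccl5 and Ccl6, although Ccl6 turned above 0 under 1 of 2 scalings.

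Ccl2 had the largest difference, 0.77, from 2.12 FPKM with IL-22 and 0.828 with PBS, about 38 reads against 10. Its ratio was 2.56, with a counting interval of 1.29 to 5.92, so the libraries differed by more than counting error although the difference missed the threshold on the log2(FPKM + 1) scale, which understates changes of low genes. Ccl4 had a ratio of 2.38 (1.11 to 5.69), with about 31 reads with IL-22 and 9 with PBS. For Ccl7 the ratio was 1.92 (0.868 to 4.68), for Ccl12 1.75 (0.942 to 3.43) and for Ccl3 1.22 (0.757 to 1.99), and at this depth no difference was detectable for these genes.

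The more abundant members had narrower intervals. Ccl9 had a ratio of 1.55 (1.34 to 1.79) and Ccr2 of 1.34 (1.16 to 1.55), both above 1 by more than counting error. Ccl5 had a ratio of 0.817 (0.699 to 0.952), with 38.0 FPKM with IL-22 and 46.5 with PBS. Ccl6 had a ratio of 0.951 (0.905 to 0.999), and its sign depended on the scaling, with a difference of -0.07 as deposited and 0.03 when both libraries were scaled to a common total. Ccl5 thus had the highest ratio of the ligands in the HDM pair and the lowest in the IL-22 pair, where its interval overlapped those of Ccl3, Ccl6, Ccl7 and Ccl12.

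**Figure D5:**
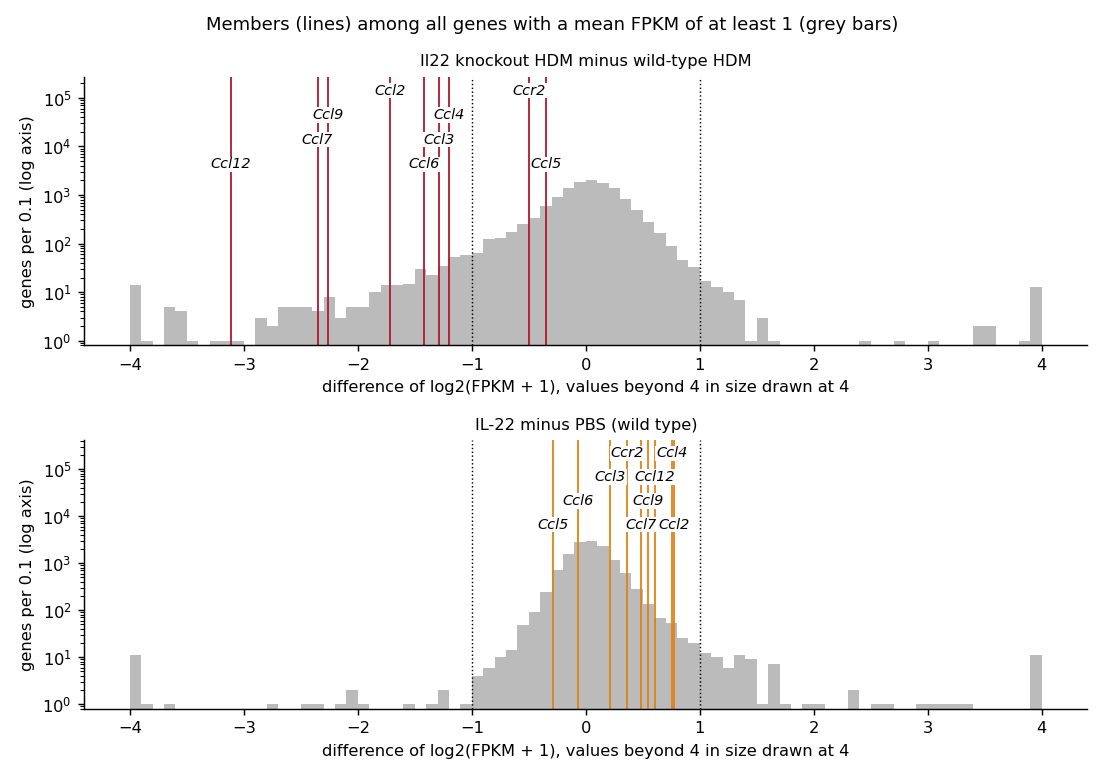
Differences of log2(FPKM + 1) of all genes past the filter (grey, log axis of gene counts per 0.1) for knockout minus wild type after HDM (top) and IL-22 minus PBS (bottom), with a line for each of the 9 genes and dotted lines at the threshold. In the upper panel 7 lines lie beyond -1 and in the lower panel none lies beyond the dotted lines, with the outermost at 0.77 for Ccl2.

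Few other genes of the pathway were called between the IL-22 and PBS libraries. None of 11 other CC ligands and none of 5 other CC and atypical receptors was called (medians 0.23 and 0.02). Ccl21a had the largest difference of these ligands in size, -0.91, with 20.0 FPKM in the IL-22 library and 38.4 in the PBS library. Ccl8 was at 2.36 and 0.975 FPKM, a difference of 0.77 that was close to that of Ccl2, the largest of the members. Ccr1 was at 2.30 FPKM in the IL-22 library and 2.26 in the PBS library. Pik3r5, a regulatory subunit of the phosphoinositide kinase downstream of chemokine receptors, was the only 1 of 13 signalling genes called, with 7.23 FPKM in the IL-22 library and 2.32 in the PBS library (list median 0.16). Rac2, a small GTPase of leukocytes, was at 35.9 and 18.8 FPKM, a difference of 0.90, and with scaling to a common total 2 signalling genes were called higher. The growth factor axis had a median of -0.11 over 7 genes.

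Some monocyte and interstitial macrophage markers were called higher with IL-22, whereas none of the 9 genes was. The part of these markers in the differences of the 9 genes was not tested. Classical monocyte markers lay above 0 in all 10 (median 0.37), with 1 called, the integrin gene Itgam (12.7 FPKM with IL-22, 4.32 with PBS), and summed to 169 FPKM with IL-22 and 144 with PBS. Interstitial macrophage markers were called higher in 3 of 13 (median 0.30), namely Emr1 (the F4/80 antigen), C1qb and Ms4a7, while 4 of the 13 lay below 0, and the list summed to 1280 and 1066 FPKM. With a size rule of 1.5, 0 monocyte and 1 interstitial macrophage marker were called higher. Alveolar macrophage markers lay below 0 in 9 of 10 (median -0.20), with sums of 339 FPKM with IL-22 and 369 with PBS and none called. Medians were -0.12 for neutrophil, 0.09 for T cell, 0.06 for NK cell, 0.01 for dendritic cell, 0.10 for B cell, 0.04 for fibroblast, -0.17 for epithelial and -0.03 for endothelial markers, again with none called, and no eosinophil marker passed the filter. Type I interferon response genes had a median of -0.11 over 16, NF-kB inducible genes of 0.02 over 11 and reference genes of 0.04 over 10, with none called. The medians of the other CC and atypical receptor, dendritic cell, NF-kB and reference gene lists changed sign with scaling by the median ratio, and that of the endothelial list with scaling to a common total.

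Levels of the HDM libraries and of the lungs without allergen stand in separate tables, were taken at different times after the last dose and may have been normalized separately, so they are only set side by side. Wild-type HDM had the highest value of the 4 libraries for each of the 9 genes. For Ccl7, Ccl12, Ccl3 and Ccl4 the knockout HDM library was the lowest of the 4, with Ccl4 at 0.961 FPKM there and 0.984 with PBS. In each of these genes the counting intervals of the knockout HDM and PBS levels overlapped, so their order is not settled. For Ccl2, Ccl6, Ccl9 and Ccr2 the lowest value was that of a library without allergen, PBS for Ccl2, Ccl9 and Ccr2 and IL-22 for Ccl6, and for Ccl5 it was also IL-22.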

How the data were processed

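The authors deposited FPKM values per gene, without a unit in the header, in 1 table for each pair of libraries, made with TopHat2, Cufflinks 2.2.1 and CASAVA 1.8.2 on mm10 per the submitters' processing notes. Not given in the sources used here were their settings, the read length and any scaling. The tables of 23746 rows were joined on symbol and accession, 25 symbols turned into dates were restored from accessions, and rows of the same symbol were added. Depth was estimated from FPKM times transcript length less 200 bases (GENCODE M21) in low rows. Of 6405 low values, 65.1% lay within 0.1 of a whole read, where an even spread gives 20%. The densest of the low values was taken as 1 read, so part of this excess follows from the fit. Reads per gene are such estimates, rounded, and ratio intervals are exact Clopper-Pearson intervals on them. Intervals of levels are exact Poisson intervals. Members and the 19 other gene lists (191 genes in the tables, Ly6g not among them, and 1 more not reported here) were chosen with earlier results of these data known. Named list genes are the members plus up to 4 per list with the largest differences, and the other examples were chosen after their values were seen. The steps were tested on simulated data. The planned protein comparison was not run. Alternatives were a pseudocount of 0.1, 2 scalings, filters of none or of 5 FPKM on average, and a size rule of 1.5. Software was matplotlib 3.10.9, scipy 1.17.1, numpy 2.4.6 and pandas 2.3.3 under Python 3.11.15.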

Additional observations from a re-analysis of the deposited data

How the results depend on the processing

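The 7 members called lower in the knockout HDM library were 7 also with a pseudocount of 0.1, under both scalings and without a filter. They were 3 of 5 tested with a mean FPKM of at least 5 (Ccl12, Ccl6 and Ccl9), a setting that drops low genes, and 4 with a size rule of 1.5 (Ccl2, Ccl7, Ccl12 and Ccl9). With IL-22, none was called higher under any alternative but a pseudocount of 0.1, which called 2, Ccl2 and Ccl4. Over all genes of the HDM pair, 322 lower and 73 higher became 488 and 131 with that pseudocount, 193 and 58 with the stricter filter and 126 and 25 with the stricter size rule. In the IL-22 pair 79 higher became 132, 53 and 31. Of 99 recomputed member differences, 97 moved by less than the distance from the middle of their counting interval to its end, in log2 units. Many of the 97 could not move, because the 2 other filters and the stricter size rule leave a difference itself unchanged. Only the pseudocount of 0.1 and the 2 scalings put the differences to a test. The 2 that moved further were Ccl7 in the HDM pair and Ccl6 with IL-22. Ccl7 went from -2.35 to -3.60 with the pseudocount of 0.1. Ccl6 changed sign when scaled to a common total. The median of the other CC and atypical receptors in the HDM pair was 0.44 with the stricter filter. In the IL-22 pair that filter also turned the medians of the NK cell (-0.17), dendritic cell (-0.21), NF-kB (-0.02) and other CC and atypical receptor lists below 0. With the size rule of 1.5 in the HDM pair, type I interferon response genes called lower were 8 instead of 15, classical monocyte markers 0 instead of 3 and dendritic cell markers 0 instead of 1, while neutrophil markers called higher were 0 instead of 2 and fibroblast markers 0 instead of 1. With a pseudocount of 0.1, 2 NF-kB inducible genes, 3 dendritic cell markers, 2 growth factor axis genes and 2 other CC and atypical receptors were called lower in that pair. No paired analysis was possible because each group has 1 library, and no replicate could be left out. Depth limits the low members most, and the fewest reads among their values were the 7 of Ccl7 in the knockout HDM library.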
